A study of Mus musculus with 7 samples.

Results

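Internal coding exons of mouse genes were compared with the introns on either side of them for enrichment of 5-formylcytosine (5fC), the base that TET enzymes make by oxidizing 5-methylcytosine and 5-hydroxymethylcytosine. A member was a merged exon of an autosomal protein-coding gene (GENCODE M1 on mm9). In at least 1 coding transcript it lay wholly within coding sequence and was neither the initial nor the last exon. It was more than 5 kb from any transcription start site (TSS). The rule used positions only and no 5fC value. It gave 85137 exons in 10616 genes, of 208041 merged exons of autosomal protein-coding genes and of 153683 internal coding exons at any distance from a TSS. They covered 12.562 Mb, with a median length of 124 bp (interquartile range 90 to 165, full range 1 to 17106). Of them, 10873 overlapped an exon that was terminal or partly untranslated in another coding transcript.

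The DNA came from the mouse embryonic stem (ES) cell line J1 (strain 129S4/SvJae), in which 5fC was tagged with biotin, pulled down and sequenced. The conditions were wild type (WT), a non-targeting siRNA control and a knockdown with a pool of siRNAs against Tdg (TDG KD), each with 2 biological replicates, and 1 WT input library served as the control for all 6 pulldowns. WT cells were grown on irradiated feeder cells, whereas both siRNA groups were transfected repeatedly without feeders, so that the transfection and the absence of feeders cannot be told apart between WT and siRNA control. All cells are of 1 line, and the siRNA target itself was not measured in these libraries. No sequence or expression marker of the cells could be checked in these files, which hold genomic domains only.

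CpG dinucleotides are the main sites of cytosine methylation in mammals, and TDG, a DNA glycosylase, excises 5fC and 5-carboxycytosine so that base excision repair can restore cytosine. Coding exons usually hold more CpG and more GC than the introns beside them. The exons studied here held on average 2.41 CpG per 100 bp against 0.956 in up to 500 bp of intron on each side, and their GC content was 49.2% against 43.5%. No CpG was present in 12.4% of the exons, and 469 exons (0.551%) lay in a CpG island (CGI) called from the sequence.

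The sequences of 4 exons show the range behind the values below, read from the mm9 genome on the coding strand with every CpG in capitals. Nid2, encoding the basement membrane protein nidogen 2 (chr14:20597960-20598205, plus strand), and Neo1, encoding the netrin receptor neogenin (chr9:58732277-58732435, minus strand), are among the exons that exceed their introns most. Rpap3, encoding an RNA polymerase II-associated co-chaperone (chr15:97518542-97518669, minus strand), and Pet112l, encoding a subunit of the mitochondrial glutamyl-tRNA amidotransferase (chr3:85405782-85405895, plus strand), are among those furthest below their introns.
Nid2: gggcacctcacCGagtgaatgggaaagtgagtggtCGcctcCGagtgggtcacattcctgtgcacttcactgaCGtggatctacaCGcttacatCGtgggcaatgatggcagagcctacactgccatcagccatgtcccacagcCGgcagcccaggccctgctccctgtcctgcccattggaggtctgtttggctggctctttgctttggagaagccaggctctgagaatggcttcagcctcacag
Neo1: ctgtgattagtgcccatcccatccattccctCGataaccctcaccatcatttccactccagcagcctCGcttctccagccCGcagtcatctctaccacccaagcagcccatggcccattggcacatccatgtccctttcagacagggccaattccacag
Rpap3: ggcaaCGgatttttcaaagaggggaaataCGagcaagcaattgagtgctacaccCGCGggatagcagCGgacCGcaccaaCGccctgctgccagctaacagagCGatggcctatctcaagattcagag
Pet112l: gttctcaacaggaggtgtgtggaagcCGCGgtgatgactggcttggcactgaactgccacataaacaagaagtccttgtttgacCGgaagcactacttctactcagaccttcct
The Rpap3 exon held 8 CpGs in 128 bp, more per length than the Nid2 exon with 7 CpGs in 246 bp, and had no enriched sequence in any library.

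Each library had been divided by the authors into enriched, background and unconfident domains. The pulldowns had 20.4 to 45.9 M uniquely placed reads. The width of the enriched domains differed far more, with a median of 700 bp in WT 1, 8200 bp in WT 2, 9400 bp in control 1, 24550 bp in control 2, 6300 bp in TDG KD 1 and 5900 bp in TDG KD 2. In WT 1, 66.7% of the enriched domains were 1 kb or shorter, against 1.09% to 10.0% in the other libraries. Exon and both flanks therefore lay in the same domain for 65.0% of the exons in WT 1 and for 95.6% to 98.8% in the other 5 libraries. A domain wider than an exon and its flanks gives all of them the same value, and in WT 1 too most exons had no boundary within this window.

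Internal coding exons were enriched in 5fC about as often as the sequence around them and more often than the genome. An exon was called enriched where at least 50% of its length lay in enriched domains. In WT 1, 37726 exons (44.4% of the 84920 covered in every library) were enriched, against 20.0% of all autosomal 100 bp bins. WT 2 had 35938 enriched exons (42.3%) against 22.3% of bins. Both control libraries were alike, with 35910 exons (42.3%) against 23.8% of bins in control 1 and 34095 (40.1%) against 22.6% in control 2. TDG KD 2 had 36642 exons (43.1%) against 23.4% of bins. TDG KD 1 stood apart with 11317 exons (13.3%) against 6.77% of bins.

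The low count in TDG KD 1 went with domains that had been called unconfident. On average 32.9% of the length of an exon lay in such domains there, against 0% to 0.264% in the other libraries. Of the 22941 exons enriched in all the other 5 libraries, 9071 were enriched in TDG KD 1 as well, 13177 were unconfident over at least 50% of their length and 693 were neither. The unconfident exons among them had a median excess of 0.00928 reads per 100 bp bin and M reads in that library, between 0.0165 for the enriched ones and -0.000872 for all members. The excess is the number of pulldown reads minus input reads in a 100 bp bin, relative to the library's genome mean and per M uniquely placed reads. TDG KD 1 was also the shallowest library, and the part of depth in its calls was not tested.

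Exons on chromosome 8 were enriched most often in every library. The share of its members that was enriched was 60.1% in WT 1, 64.2% in WT 2, 79.3% in control 1, 85.3% in control 2, 50.2% in TDG KD 1 and 74.7% in TDG KD 2. The highest of the other autosomes reached 57.9% to 59.5% in 5 libraries and 28.2% in TDG KD 1. The contrasts of exons with introns below were also computed without this chromosome and kept their direction.

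The exons exceeded their flanking introns in all 6 libraries, by an amount that ranged from 4.56 percentage points to almost nothing. For the 76693 exons with at least 100 bp of intron on both sides, the mean share of length in enriched domains in WT 1 was 42.7% in exons and 38.1% in flanks. It was 40.9% against 40.8% in WT 2, 40.9% against 40.7% in control 1 and 38.8% in both in control 2. TDG KD 1 had 12.6% in both, and TDG KD 2 had 41.7% against 41.5%. The difference was 4.56 percentage points in WT 1, 0.155 in WT 2, 0.134 in control 1, 0.0228 in control 2, 0.0141 in TDG KD 1 and 0.249 in TDG KD 2.

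**Figure D1:**
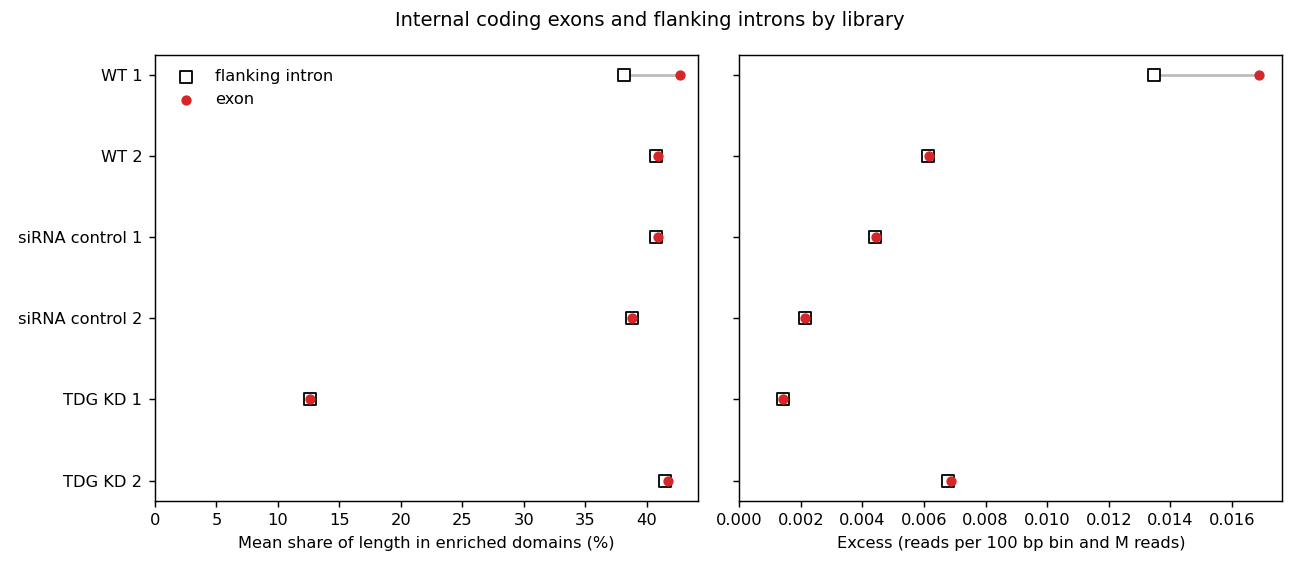
Mean share of length in 5fC-enriched domains (left, %) and excess of pulldown over input reads (right, reads per 100 bp bin and M reads) for 76693 internal coding exons (red circles) and their flanking introns (open squares), 1 row per library. A gap between exon and flank is visible in WT 1, with 42.7% against 38.1%, while the symbols overlap in the other 5 libraries.

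The mean difference was 0.856 ± 1.82 percentage points (SD, n = 6 libraries), positive in 6 of 6, with p = 0.03125 in an exact two-sided sign-flip permutation test, the smallest p that 6 libraries allow. Adjusted over the 14 such comparisons made here, this exact p became 0.0729 and did not pass 0.05. Without WT 1 the mean was 0.115 percentage points, still positive in each remaining library. All 6 libraries share the input, so that they are not fully independent and the test measures only the spread between them. Weighting base pairs rather than exons gave 3.76 percentage points, but it weighted exons by their own length and flanks by flank length. That value is therefore not a difference within pairs of exon and flank. Using only the nearest 200 bp of intron gave 0.456. Leaving out exons that overlapped a terminal or partly untranslated exon gave 0.855 over 67746 exons.

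The excess of reads was also higher in exons than in flanks in all 6 libraries. In WT 1 it was 0.0169 reads per 100 bp bin and M reads in exons and 0.0135 in flanks. In the other libraries the exon and flank values differed by 1.4e-06 (control 2) to 8.79e-05 (TDG KD 2). The mean difference was 0.000596 ± 0.00137 (SD, n = 6), positive in 6 of 6 libraries with an exact sign-flip permutation p of 0.03125 and an adjusted p of 0.0729. It was 3.87e-05 without WT 1. With the nearest 200 bp of intron or with genes weighted equally the exact permutation p was 0.0625, whereas the share kept 0.03125. The excess was thus not positive in all 6 libraries under either setting.

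Where a domain boundary did fall within an exon and its flanks, the mean share was higher in the exon in each library. Windows within 1 domain have the same value in exon and flanks. The direction here therefore follows from that of the difference over all exons and adds no support to it. There were 26869 such windows in WT 1, with an exon share of 59.2% against 46.2% in the flanks. In the other libraries there were 920 to 3344 of them, and the exon exceeded the flanks by 4.89 percentage points in WT 2, 4.55 in control 1, 1.86 in control 2, 0.741 in TDG KD 1 and 5.68 in TDG KD 2. In WT 1, 2259 exons were enriched while both flanks were not, against 232 exons that were not enriched while both flanks were. The same 2 counts were 13 and 1 in WT 2, 12 and 3 in control 1, 0 and 0 in control 2, 6 and 0 in TDG KD 1 and 23 and 4 in TDG KD 2. Short domains were commoner among enriched than among background domains in WT 1 (66.7% against 34.0% of 1 kb or less), and the part of this in the uneven counts was not tested.

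The flanks on the 2 sides of an exon differed slightly. The downstream flank had the higher enriched share in every library, by 1.04 percentage points in WT 1 and by 0.0308 to 0.185 in the others. The mean was 0.290 ± 0.374 (SD, n = 6, exact sign-flip permutation p = 0.03125, adjusted 0.0729).

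In long introns the enrichment of WT 1 fell close to the exon edge. For the 6563 exons with at least 5 kb of intron on both sides, WT 1 had 31.8% of exon sequence in enriched domains, 29.4% of the nearest 100 bp of intron, 22.8% at 550 bp and 21.4% on average from 4 to 5 kb. The midpoint of this fall was passed at 250 bp, and the sequenced fragments were themselves 200 to 500 bp long. TDG KD 2 fell from 27.8% to 25.4% over the same distance, with its midpoint at 850 bp. WT 2 and control 1 each fell by 1.07 percentage points, control 2 by 0.376 and TDG KD 1 by 0.0896. At 4 to 5 kb WT 1 was the lowest library apart from TDG KD 1, while at the exon it was the highest.

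**Figure D2:**
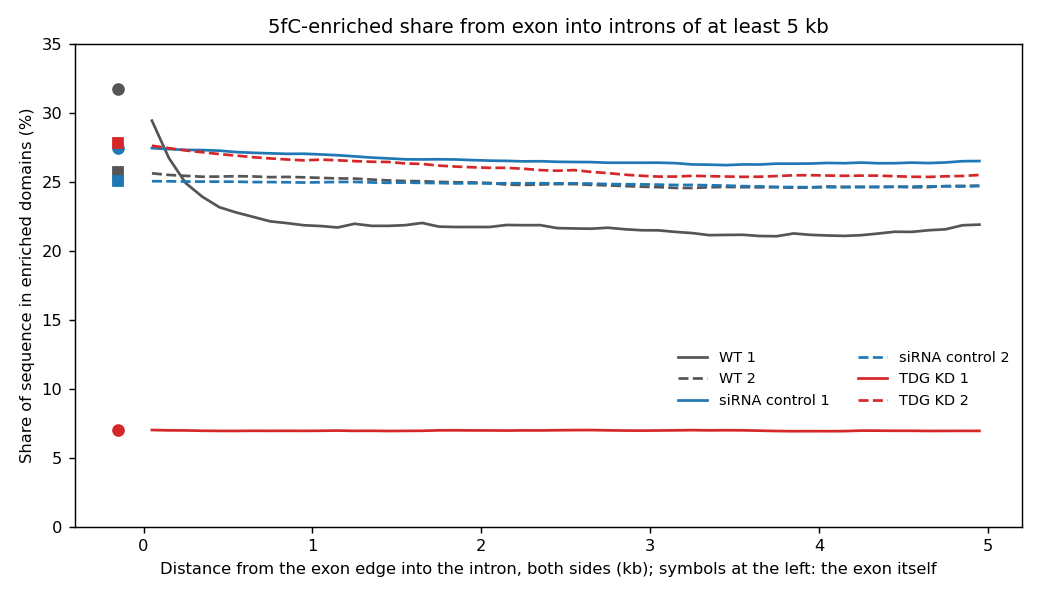
Share of sequence in 5fC-enriched domains (%) against distance from the exon edge into the intron (kb, mean of both sides) for 6563 exons with introns of at least 5 kb, 1 line per library, with the exon itself as a symbol at the left. The WT 1 line drops from 29.4% beside the exon to 22.8% at 550 bp, whereas the other lines are nearly flat.

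The longest exons stood out most from their introns in each library. In WT 1 the exon minus flank share was 0.808 percentage points for exons under 100 bp, 4.19 for 100 to under 150 bp, 6.33 for 150 to under 200 bp, 10.7 for 200 to under 500 bp and 19.4 for 500 bp or more. In the other libraries the longest class was also the highest, at 1.96 in WT 2, 0.878 in control 1 and 0.521 in control 2. It was at 0.190 in TDG KD 1 and 2.75 in TDG KD 2. Of these libraries only TDG KD 2 rose at each step of length. In control 2 the difference was -0.00857 at 150 to under 200 bp and -0.0282 at 200 to under 500 bp. The longest class (1235 exons with flanks) exceeded the shortest by 4.11 ± 7.14 percentage points (SD, n = 6), positive in 6 of 6 libraries, with an exact sign-flip permutation p of 0.03125 and an adjusted p of 0.0729. It exceeded it by 1.22 without WT 1. Under equal weighting of base pairs, again with exons and flanks weighted by their own lengths, the difference was 3.48 (exact permutation p = 0.15625). It was then not positive in all 6 libraries.

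CpG density and GC content moved with exon length, from 2.14 CpG per 100 bp and 47.6% GC in the shortest class to 2.58 and 51.9% in the longest. Within exons of 2 to under 4 CpG per 100 bp the difference of WT 1 still went from 1.54 percentage points under 100 bp to 24.2 at 500 bp or more. In control 2, in exons of 4 or more CpG per 100 bp, it went from 0.00149 to -0.0910. GC content was not held constant in these classes. A short exon also fills less of a 100 bp bin and of a fragment, and the part of this was not tested.

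The 10 longest members differed widely. The longest was the 17106 bp exon of Ttn, encoding the giant sarcomere protein titin (chr2:76574121-76591226), with 406 CpGs. It was enriched over 53.9% of its length in WT 1, 33.9% in WT 2, 77.2% in control 1, 36.8% in control 2, 0% in TDG KD 1, where 87.7% was unconfident, and 64.5% in TDG KD 2. Its flanks were at 18.6%, 0%, 100%, 0%, 0% and 18.6% in the same order, so that control 1 went against the others that held enriched sequence. In Hivep1, encoding a zinc finger transcription factor (chr13:42249749-42255687, 5939 bp), the exon share was 84.2% to 100% in the 6 libraries. Its flank share was 0% in WT 1, 50.0% in WT 2, 79.4% in control 1, 100% in control 2, 100% in TDG KD 1 and 19.4% in TDG KD 2, and the exon was at or above its flanks in each library.

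Other long exons stood out in some libraries only. In Prune2 (chr19:17192533-17199082), the exon was enriched over 59.1% in WT 1 against 3.20% of its flanks, and over 70.2% against 0% in WT 2, 97.4% against 40.8% in control 1 and 89.7% against 26.9% in TDG KD 2, with 0% in control 2 and in TDG KD 1, where 61.1% was unconfident. The exon of Cmya5, encoding a muscle protein, was enriched over 41.9% in WT 1, 64.4% in WT 2 and 46.2% in TDG KD 2 and over 0% in the other 3 libraries, with flanks at 0% in all 6. At the extremes, the exons of Muc5b, encoding a gel-forming mucin, and Ankrd11, encoding a chromatin cofactor, were fully enriched together with their flanks in all 6 libraries. The exon of Rp1, encoding a photoreceptor microtubule protein, held none in any library, and that of Mki67, which encodes the proliferation marker Ki-67, held 8.78% in WT 1 and none elsewhere. Rp1 had 38.9% GC and Ankrd11 54.5%.

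The exons with the largest and the lowest mean difference were chosen by these values and are described without a test. Among exons of at least 100 bp with full flanks, Hivep1 was first with a mean of 37.1 percentage points, followed by Zbtb20, encoding a zinc finger repressor, with 30.2. The Zbtb20 exon (1605 bp) was fully enriched in all libraries other than TDG KD 1, with flanks at 29.5% in WT 1, 63.0% in WT 2, 39.5% in control 1, 100% in control 2 and 86.5% in TDG KD 2. The short Neo1 exon shown above was fully enriched in WT 1, control 1 and TDG KD 2, against flanks at 14.1%, 68.1% and 58.1%, and had 0% in exon and flanks in the remaining 3 libraries. The Nid2 exon was enriched over 100% in WT 1 and control 1 and 90.7% in WT 2 and TDG KD 2, with 50.0% to 57.7% of its flanks, and over 0% in control 2 and in TDG KD 1, where it was unconfident throughout.

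Of the 5 lowest members, Pet112l and Rpap3 had an exon without enriched sequence beside intron that was enriched in part. The exons of Spock1, Dcaf4 and Spag1 were each enriched over 100% in 1, 2 and 1 libraries. The Pet112l exon had 0% in all 6 libraries, with flanks at 10.0% in WT 1, 0% in WT 2 and control 1, 34.8% in control 2, 46.6% in TDG KD 1 and 44.8% in TDG KD 2. The Rpap3 exon also had 0% in all 6, with flanks at 5.50% to 35.5% in the 5 libraries other than TDG KD 1. The means of these 2 exons were -22.7 and -20.3 percentage points. Neither exon was enriched in any library, and in TDG KD 1 the Rpap3 exon was unconfident throughout.

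Exons of long genes were enriched less often than exons of short genes in all 6 libraries. In genes under 30 kb, 61.1% of exon length was enriched in WT 1, 62.0% in WT 2, 61.3% in control 1, 59.2% in control 2, 21.8% in TDG KD 1 and 62.0% in TDG KD 2. In genes of 300 kb or more the values were 28.8%, 21.1%, 25.2%, 21.8%, 5.55% and 24.3% in the same order. The longest class was lower than the shortest by 16.3 percentage points in TDG KD 1 and by 32.3 to 40.8 in the others. The mean difference was -33.4 ± 8.85 percentage points (SD, n = 6), negative in 6 of 6, with an exact sign-flip permutation p of 0.03125 and an adjusted p of 0.0729. It was -33.7 without WT 1.

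The flanking introns followed the same order, with a mean over libraries of 51.1% in genes under 30 kb and 20.0% in genes of 300 kb or more. From the shortest to the longest class, the exon minus flank difference went from 4.52 to 6.65 percentage points in WT 1. It went from 0.0270 to -0.0160 in control 2 and stayed at or under 0.403 in the other libraries. The exons' CpG density was 2.56 per 100 bp in genes under 30 kb and 2.36 to 2.42 in the 3 longer classes, while the GC content was 51.2% against 48.8% to 49.0%. The flanks had 1.02 CpG per 100 bp in the shortest and 0.838 in the longest class.

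Exons far from a TSS were also enriched less often, and within each distance class the mean over libraries still fell with gene length. Averaged over the libraries, 47.5% of exon length was enriched at 5 to under 10 kb from any TSS, 40.1% at 10 to under 20 kb, 31.7% at 20 to under 50 kb and 21.4% at 50 kb or more. The farthest class was 26.1 ± 6.46 percentage points (SD, n = 6) below the nearest, in 6 of 6 libraries (exact sign-flip permutation p = 0.03125, adjusted 0.0729). Within the class of 5 to under 10 kb, the mean share was still 58.0% in genes under 30 kb, 42.0% at 30 to under 100 kb, 37.8% at 100 to under 300 kb and 27.4% at 300 kb or more. In genes of 30 to under 100 kb it fell from 42.0% in the nearest to 28.0% in the farthest class.

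**Figure D3:**
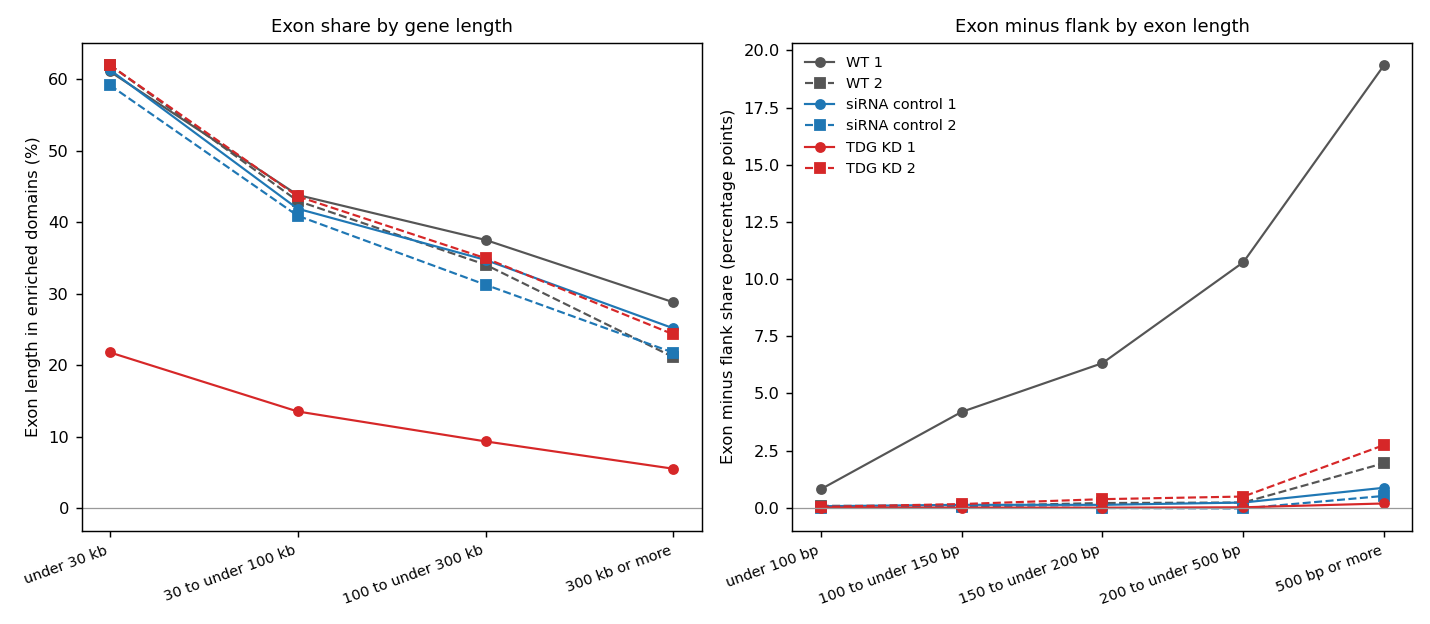
Left, share of exon length in 5fC-enriched domains (%) by gene length class. Right, exon minus flank share (percentage points) by exon length class. Each line is 1 library, and symbols are class values. The gene length lines fall in all 6 libraries, by 16.3 percentage points in TDG KD 1 and by 32.3 to 40.8 in the others. The exon length line of WT 1 rises to 19.4 and the others stay at or under 2.75.

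Exons rich in GC and CpG were enriched far more often than exons poor in them. Exons under 40% GC were enriched over 2.01% to 10.5% of their length in the 6 libraries, with a mean of 8.22%. The mean was 20.6% at 40 to under 50% GC, 54.2% at 50 to under 60% and 76.4% at 60% or more, where the libraries ranged from 36.6% in TDG KD 1 to 86.1% in WT 1. Over the exons with enough intron on both sides, the flanks of these classes had 8.65%, 20.1%, 51.1% and 73.8%, and the exons differed from them by -0.505, 0.200, 1.76 and 1.46 percentage points. By CpG density, the mean exon share was 21.0% without a CpG, 42.6% at 2 to under 4 CpG per 100 bp and 66.1% at 6 or more. The 469 exons in a CGI had a mean of 80.2%, with 95.7% in WT 1.

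The difference between exon and flank also moved with composition. In WT 1 it was -0.829 percentage points for exons with no CpG, 2.10 under 1 CpG per 100 bp, 6.19 at 2 to under 4 and 8.44 at 6 or more. By GC content it was -2.81 under 40% GC and 9.45 at 50 to under 60%. The highest CpG class minus the class with none gave 1.73 ± 3.69 percentage points over the libraries (SD, n = 6, positive in 5, exact sign-flip permutation p = 0.0625, adjusted 0.0972).

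Where exon composition did not exceed that of the flank, the mean difference was near 0 or below it. For the 14705 exons whose CpG density was at or below that of their flanks, it was 0.373 percentage points in WT 1 and 0.0940 ± 0.141 over the libraries (SD, n = 6, exact permutation p = 0.0625, adjusted 0.0972). For the 14397 exons with GC content at or below their flanks, it was -1.57 in WT 1 and -0.268 ± 0.639 over the libraries (exact permutation p = 0.28125, adjusted 0.358). For exons without a CpG the mean was -0.131 ± 0.343 (exact permutation p = 0.71875, adjusted 0.774). By contrast, the WT 1 difference was 5.56 where CpG density exceeded the flank and 5.98 where GC content did. These subsets were chosen after the values were seen. GC content also affects amplification and read recovery, and 5fC at CpGs and base composition cannot be told apart in these files.

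**Figure D4:**
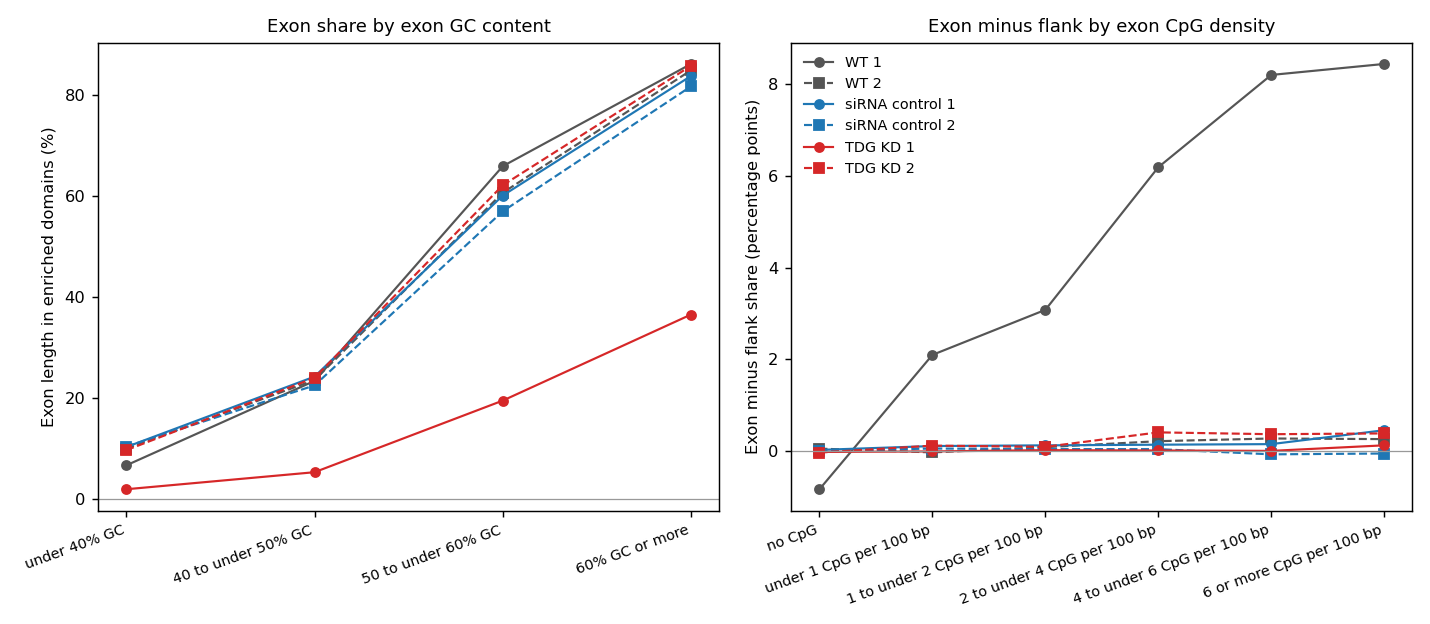
Left, share of exon length in 5fC-enriched domains (%) by GC content of the exon. Right, exon minus flank share (percentage points) by CpG density of the exon. Each line is 1 library. The enriched share rises with GC content in all 6 libraries, from 2.01% to 10.5% in the lowest class to 36.6% to 86.1% in the highest, while the difference rises clearly in WT 1 only, from -0.829 to 8.44.

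The 5 named members with the highest CpG density lay within enriched domains that also held nearly all of their flanks. As a class, exons with 6 or more CpG per 100 bp exceeded their flanks by 8.44 percentage points in WT 1. The 374 exons in a CGI with enough intron differed from their flanks by a mean of 3.085, with -0.353 to 16.3 across the libraries. Asb18, encoding an ankyrin and SOCS box protein (chr1:91864788-91865295), held 85 CpGs in 508 bp and was fully enriched in all 6 libraries with flanks at 100%. An exon of Cacna1a, encoding a P/Q-type calcium channel (chr8:87082915-87083589, 107 CpGs), was also fully enriched in all 6, with flanks at 95.7% to 100%. Dact3, encoding a Wnt pathway antagonist (chr7:17470430-17471163), and Siglec15, encoding a sialic acid-binding lectin, were fully enriched in the 5 libraries other than TDG KD 1.

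Splicing class and reading frame gave no difference that passed the test. The 5865 skipped exons had an enriched share 0.871 ± 1.07 percentage points lower than exons in every coding transcript (SD, n = 6, lower in 5 of 6, exact sign-flip permutation p = 0.125, adjusted 0.175), and their exon minus flank share differed by 0.000302 ± 0.217 (exact permutation p = 1). Exons whose length is a multiple of 3, which keep the reading frame when skipped, differed from the others in exon minus flank share by 0.00455 ± 0.0102 (exact permutation p = 0.375, adjusted 0.4375). Last exons more than 5 kb from a TSS (13403) were 5.96 percentage points less enriched than internal coding exons in WT 1, and within 0.0847 to 1.17 of them elsewhere, with a mean of -1.31 ± 2.31 (exact permutation p = 0.0625, adjusted 0.0972). Last and internal exons can overlap, because the position of an exon was judged in each transcript. A p that misses 0.05 here does not show that these classes are alike.

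TDG KD and siRNA control did not separate in the exon minus flank share. The values were 0.134 and 0.0228 percentage points in the controls and 0.0141 and 0.249 in TDG KD, so that the groups overlapped. TDG KD minus control was 0.0529 percentage points (exact two-sided permutation p = 1, where 2 against 2 libraries cannot go below 0.333). Within the library name prefix BHAM it was -0.120 and within EAR 0.226, of opposite sign. The difference in excess was 2.85e-05 reads per bin and M reads (exact permutation p = 0.667), with -2.95e-05 within BHAM and 8.65e-05 within EAR. The exon share itself was 40.9% and 38.8% in the controls and 12.6% and 41.7% in TDG KD, lower by 28.3 percentage points within BHAM and higher by 2.91 within EAR.

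Calls that set both TDG KD libraries apart from both controls were as frequent in exons as in the genome. Only 156 exons (0.184%) were enriched in both TDG KD and neither control library, and the share of autosomal bins was 0.184%. The converse held for 1864 exons (2.20%) against 2.17% of bins. The longest exon of the TDG KD pattern was in Uaca, encoding a coiled-coil protein (chr9:60717382-60720090, 2709 bp), with 100% in both TDG KD libraries, 21.2% and 39.6% in the controls and 76.6% and 98.7% in WT. An exon of Auts2, a gene of neuronal development (chr5:131915444-131916563), had 100% in both TDG KD, 48.4% and 0% in the controls and 100% in both WT libraries. In all 5 longest exons of this pattern both WT libraries were enriched as well. Of the converse, the exon of Cpt2, encoding carnitine palmitoyltransferase 2, had 100% in both controls, 69% and 30.7% in WT and 0% in both TDG KD, where it was unconfident throughout in TDG KD 1.

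Exons were enriched in all 6 libraries more often, and in none less often, than the bins of the genome. All 6 libraries called 9071 exons enriched (10.7% against 3.62% of bins), and 34337 exons (40.4% against 62.2%) were enriched in none. Over the 76693 exons with enough intron on both sides, these patterns held for 9.92% and 41.6% of exons and for 9.79% and 43.7% of flanks. Between WT and control, 1667 exons (1.96% against 1.07% of bins) were enriched in both WT and neither control library. The converse held for 1193 exons (1.4% against 2.1% of bins). Over the exons with enough intron, the patterns of WT and control held for 1.96% and 1.45% of exons and for 1.67% and 1.64% of flanks. The control minus WT difference in exon minus flank share was -2.28 percentage points (exact permutation p = 0.333, the smallest possible), with WT 1 at 4.56 and WT 2 at 0.155.

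Genes whose exons were all in 1 state were the majority in the libraries with wide domains and the minority in WT 1. Of the 2911 genes with 10 or more members, between 10.0% in TDG KD 1 and 44.7% in TDG KD 2 had both enriched and other exons in the libraries with wide domains, and 75% did in WT 1. The median length of the 2911 genes was 78.9 kb. All exons were enriched in all 6 libraries in 144 genes, which had a median length of 32.8 kb. No exon was enriched in any library in 338 genes, with a median of 83.7 kb, close to that of all 2911. The largest of the former were Dnahc17 (47 exons), Flnc (46), Unc13a (45), Itpr3 (44), Myo15 (41) and Lrp1 (40), with 2.87 to 4.51 CpG per 100 bp. The largest of the latter were Pkhd1l1 (75 exons), Vps13a (65), Col11a1 (59), Csmd3 (59), Skint5 (53) and Usp34 (49), with 0.848 to 1.78 CpG per 100 bp. These genes were chosen after their values were seen.

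Tet and Dnmt genes, whose products make and oxidize 5-methylcytosine, had 64 exons in 6 genes. Between 75% and 84.4% of these exons were enriched in the 5 libraries other than TDG KD 1, against 40.1% to 43.1% of all members in 4 of them and 44.4% in WT 1. No exon of the list was enriched in TDG KD 1. Of the 37 exons of Dnmt1, the maintenance methyltransferase, 33 were enriched in WT 1, 37 in WT 2, 33 in control 1, 37 in control 2, 0 in TDG KD 1 and 33 in TDG KD 2. All of the exon sequence of Dnmt1 was unconfident in TDG KD 1, with an excess of 0.0102 there. Tet2 (8 exons) had at most 1 enriched exon in any library, and Tet3 (5 exons) had 3 to 5 in the libraries other than TDG KD 1. The list was led by Dnmt1, which holds most of its exons.

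Chromatin regulators had 181 exons in 9 genes, with 58.0% to 73.5% enriched in the libraries other than TDG KD 1, against 40.1% to 44.4% of all members. In TDG KD 1 it was 0% against 13.3%, with 63.0% of their exon length unconfident. All 47 exons of Mll2, a histone H3 lysine 4 methyltransferase, were enriched in those 5 libraries, and all were unconfident in TDG KD 1. Mll2 held the most exons of the list. It gave 47 of the 105 enriched exons in control 1 and 47 of the 107 in control 2. Chd4, the remodeling ATPase of the NuRD complex, had 9 or 10 of 10 exons enriched in the same 5. Suz12, a core subunit of Polycomb repressive complex 2, had 0 of 5 in any library, and Kdm5b, a histone H3 lysine 4 demethylase, had at most 3 of 20. The list was thus not of 1 kind.

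Voltage-gated channel genes, encoding pore-forming subunits of calcium and sodium channels, had 432 exons in 18 genes. Of these, 64.6% were enriched in WT 1, 68.8% in WT 2, 73.6% in control 1, 76.6% in control 2, 34.5% in TDG KD 1 and 73.4% in TDG KD 2. The shares of all members were 44.4%, 42.3%, 42.3%, 40.1%, 13.3% and 43.1% in the same order. All exons were enriched in all 6 libraries in Cacna1a (27), Cacna1g (18), Cacna1h (4) and Scn4a (17). The sodium channel genes Scn1a, Scn3a, Scn7a and Scn9a, which lie near each other on chromosome 2, had 0 to 2 enriched exons each in WT 1 and none in the other 5 libraries, of 20, 13, 22 and 14. Their CpG density was 1.26 to 2.08 per 100 bp, against 2.82 to 4.89 in the 4 fully enriched genes.

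Collagen genes also included both fully enriched genes and genes with no enriched exon. The list had 1040 exons in 37 genes, of which 43.2% to 46.7% were enriched in the libraries other than TDG KD 1 and 19.8% in TDG KD 1. All members had 40.1% to 44.4% and 13.3%, so that the list as a whole was near them, and in WT 1 it was below (43.2% against 44.4%). All 18 exons of Col2a1, encoding cartilage collagen, were enriched in all 6 libraries. None of the 59 of Col11a1, of the 33 of Col5a2 and of the 20 of Col9a1 were enriched in any. Some neighbouring genes had similar values. Col4a1 (35 exons) and Col4a2 (14), a basement membrane pair, had all exons enriched in 5 libraries and 24 and 13 in WT 1. Col4a3 (43) and Col4a4 (46), another such pair, had 0 to 9 in any library.

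Sarcomere genes had 607 exons in 10 genes with a mean over libraries of 34.2% enriched against 37.6% of all members. The list was near all members in WT 1 (43.2% against 44.4%) and above them in TDG KD 1 (17.6% against 13.3%). Ryr1 and Ryr2, which encode the calcium release channels of skeletal muscle and heart, differed. Ryr1 (77 exons, 121.8 kb) had 75 enriched in WT 1 and 77 in WT 2, both controls and TDG KD 2, and 0 in TDG KD 1, where all were unconfident. Ryr2 (103 exons, 553.8 kb) had 23, 8, 17, 19, 3 and 11 in the order used above, and 64 of its exons were enriched in no library. Ttn (205 exons) had 14 to 61 and Neb (91 exons), encoding nebulin, had 0 to 16.

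Axonemal dynein heavy chain genes, encoding the motors of cilia, had 719 exons in 12 genes, with 48.5% to 51.7% enriched in the libraries other than TDG KD 1 and 34.8% in TDG KD 1, against 40.1% to 44.4% and 13.3% of all members. All 47 exons of Dnahc17 and 72 of 75 of Dnahc1 were enriched in all 6 libraries. Dnahc5 (77 exons, 268.3 kb) had at most 8 enriched exons in a library, and Dnahc12 (47 exons, 192.1 kb) at most 4. In the lists as in all genes, exons of 1 gene or of neighbouring genes could lie in 1 domain and were not independent of each other.

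**Figure D5:**
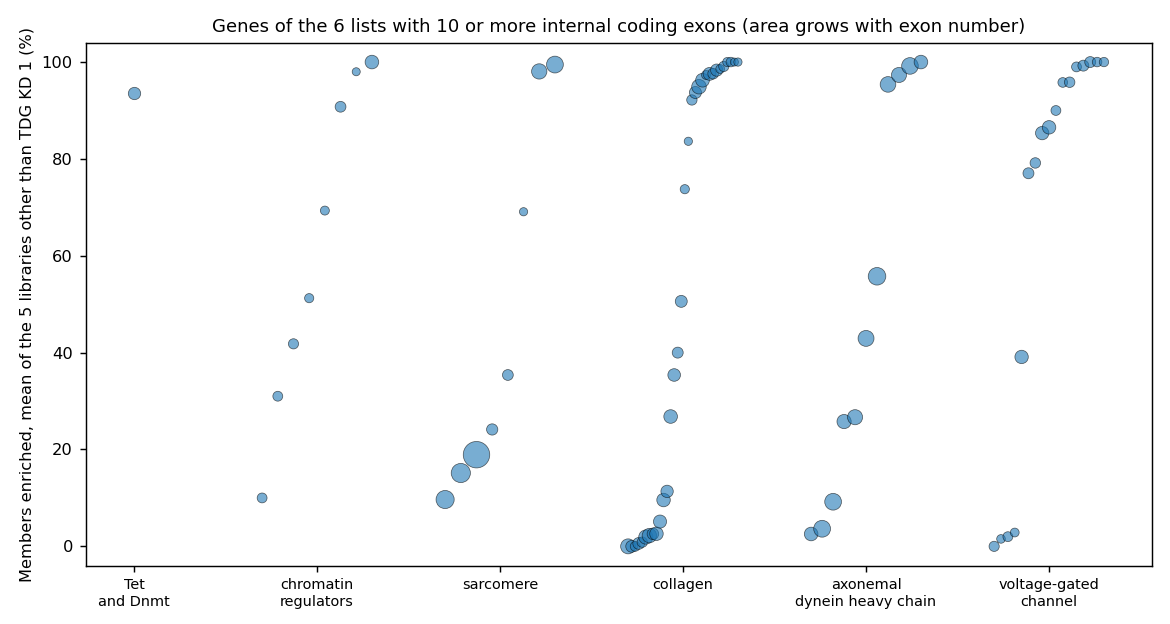
Percent of a gene's internal coding exons that were enriched, as the mean of the 5 libraries other than TDG KD 1, for the genes of 6 lists with 10 or more such exons (1 circle per gene, ordered by value within the list, area growing with the number of exons). Collagen genes range from 0 to 100%, and most genes of that list and of the channel list lie near 1 of the 2 ends.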

How the data were processed

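5fC-tagged DNA from J1 ES cells was sequenced (single-end, 40 cycles per the study's methods) from 6 pulldowns and 1 WT input. Per the study's methods, the authors placed reads on mm9 using BWA (0.6.1, as the notes of the submitters give it), kept reads of mapping quality 15 or more and ran rseg in mode 2 against the input with 100 bp bins, on each replicate separately. The deposited values are domains labelled enriched, background or unconfident with a score, read here as the mean of pulldown minus input reads per bin. A second deposited score that grows with domain width was not used.

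Exon, flank and TSS positions came from GENCODE M1, and sequence from the same build. Flanks were up to 500 bp of intron a side, cut at the next annotated exon. The score was averaged over length, the library mean subtracted and the result divided by the M uniquely placed reads in the study's table of sequencing runs. CGIs were called from sequence (at least 200 bp, GC over 50%, observed to expected CpG over 0.6). Each library gave 1 value per comparison, tested over libraries by exact permutation tests with Benjamini-Hochberg adjustment over 14 comparisons; p-values measure only the spread between these libraries. The integrals and tests were checked on simulated data. Python 3.11.15, NumPy 2.4.6, SciPy 1.17.1, pandas 2.3.3 and Matplotlib 3.10.9 were used. Counting intervals were not computed, since the files hold domains and not reads per exon.

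Members and gene lists were chosen with earlier results of these data known. Named exons were the 10 longest, the 10 with the largest and 5 with the lowest mean exon minus flank share (at least 100 bp, full flanks), the 5 with most CpG per length, the 5 longest of each TDG KD pattern and those of 6 gene lists. Not all are described. Kmt2 symbols, Dnmt3l, Uhrf1, Tdg, Ezh2 and Kdm6a gave no member. Flank size and position, TSS distance, overlap with terminal or partly untranslated exons, CGIs, domain threshold, weighting, unconfident sequence, chromosome 8 and each library were varied.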

Additional observations from a re-analysis of the deposited data

Results flagged for a closer look

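WT 1 lay farther from the other 5 pulldowns than Dixon's 95% limit for 6 values in 4 measures. These were the exon minus flank share (4.56 percentage points), the exon minus flank excess (0.00338 reads per bin and M reads), the longest minus shortest exon class (18.6 percentage points) and the exon excess (0.0169). The gap to the nearest library was 0.948, 0.974, 0.862 and 0.647 of the whole range in these measures. WT 1 had the narrowest enriched domains (median 700 bp) and the most reads (45.9 M), and their part in these values was not tested. TDG KD 1 was set apart likewise in the exon enriched share (12.6%) and in the longest minus shortest gene class (-16.3 percentage points), with gaps of 0.871 and 0.651 of the range. It had 32.9% of exon length in unconfident domains and the fewest reads (20.4 M). The 6 pulldowns of 3 conditions were taken as 1 set here, and chance marks about 1 in 20 such sets.

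TDG KD minus siRNA control had opposite signs in the 2 library name prefixes. For the exon minus flank share it was -0.120 percentage points within BHAM and 0.226 within EAR, and for the excess -2.95e-05 and 8.65e-05 reads per bin and M reads. Each prefix held 1 TDG KD and 1 control library, and the difference between the prefixes was not tested.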

How the results depend on the processing

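The threshold here is an unadjusted exact p of 0.05. Weighting base pairs counted exons by exon length and flanks by flank length, so that exon and flank were not weighted as pairs. With other flanks, distances, weights and thresholds, the exon minus flank share stayed positive (0.456 to 3.76 percentage points), the longest minus shortest exon class positive (3.00 to 6.67) and the gene class negative (-36.3 to -26.7). The exon minus flank excess lost its call with the nearest 200 bp (0.000336) and with genes weighted equally (0.000638), both at an exact permutation p of 0.0625, and the exon length contrast with base pairs weighted equally (3.48, p = 0.15625); the cause was not tested.

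Leaving out 1 library gave 0.115 to 1.02 percentage points for the share, 3.87e-05 to 0.000715 for the excess, 1.22 to 4.89 for the exon class and -36.9 to -31.9 for the gene class, all at p = 0.0625, the smallest exact permutation p that 5 libraries allow. The lowest of the first 3 ranges are without WT 1. TDG KD minus control ranged from -0.0644 to 0.170 percentage points and from -1.08e-05 to 6.78e-05 in excess, with no test. It was negative in share without control 2 or TDG KD 2, and in excess without TDG KD 2.

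The alternatives limited to exons with CpG density at or below the flank, or without a CpG, were added after seeing the data. In the former the share was 0.0940, the excess 3.83e-05 (exact permutation p = 0.21875), the exon class 1.46 (p = 0.25), and TDG KD minus control -0.0431 in share and -1.76e-05 in excess. In the latter the share was -0.131, the excess -0.000113 (exact permutation p = 0.40625), and TDG KD minus control -0.0401 and -2.61e-05. No paired analysis was possible because the labels carry no replicate numbers to pair by, and the values within each name prefix rest on 1 library per group and have no test. Domains of 5900 bp and more in 5 libraries limit what can be resolved at exons.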
